A study of Rattus norvegicus with 48 samples.

Results

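Transcripts that hepatocytes make for the blood and for liver metabolism were followed in RNA sequencing libraries of rat lung. The 10 genes were Alb, Ttr, Gc, Fga, Fgb, Pzp, Itih3, Apob, Cps1 and Bhmt, taken by symbol from the 30045 genes of the count tables, and all 10 were found. They were picked because their counts varied widely between lungs and in a similar way in both tables. Variation and likeness are therefore described here without a test, apart from Dixon's outlier rule, which only lists libraries. The comparisons between groups come from fits over all genes, and a choice made with these values known limits what they show for the 10. The study asked how the lung of male Sprague-Dawley rats, 200 to 250 g in weight, responds to inhaled oil vapor. Rats sat in whole-body chambers and breathed oil vapor at 300 ppm or filtered air for 6 h a day, on 4 days of each of 4 weeks, which is 16 exposures, or on 1 day only. Lungs were taken 28 days or 1 day after the last exposure. This gave 8 groups of 6 animals: 16 exposures to oil vapor at 28 days, 16 exposures to air at 28 days, the same pair at 1 day, and the same 4 groups with 1 exposure. The labels name no transgene or deletion in any group, and each library came from a piece of 1 animal's lung.

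Hepatocytes secrete most proteins of blood plasma, among them albumin, fibrinogen, lipoprotein particles and protease inhibitors, and they hold the urea cycle and much of the body's methionine metabolism. Their genes are switched on by factors that include HNF1, HNF4 and C/EBP proteins. The lung is supplied by this plasma but is not a main source of it, and lung tissue is defined by other genes, such as those of surfactant and of club cells.

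A library held 5.18 ± 1.02 M (mega) counts on average (SD, n = 48), 1.54 M at the least and 7.16 M at the most. Levels are given as CPM, counts of a gene per M counts of its library, and the limit that a count of 0 allows, 3 counts, was 0.419 to 1.95 CPM. The tissue label was checked against 10 genes of lung epithelium, led by Sftpc, Sftpa1 and Scgb1a1, which summed to 14689 to 21584 CPM in 46 libraries. Animals 43 and 44 (both 16 exposures to oil vapor, 1 day) had 7816 and 12616 CPM of lung genes, and animal 43 had the fewest counts, 1.54 M. Ranges without animal 43, a choice made after seeing the data, are given where it sets the highest value of a sum. They are also given for Alb, Gc, Fgb and Apob at 1 day after 16 exposures. In such pieces of tissue, fewer cells of a type and less RNA per cell cannot be told apart.

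Because the members varied together, their promoters were searched for letters of liver factors. RefSeq gave a window of 250 bases before to 50 bases after the gene start for 9 of the 10 members, in the rat assembly GRCr8, with Apob the exception. The letters searched, on both strands, were GTTAAT for HNF1, TTGCNNAA for C/EBP and CAAAGTCCA for HNF4. The HNF1 letters were present in 5 members, Alb, Fga, Fgb, Gc and Pzp, and in 7.45% of 33469 windows of the same length. The C/EBP letters were present in 3, Alb, Fga and Fgb, and in 10.6% of all windows, and the HNF4 letters in 1, Cps1, and in 0.391%. The TATA box letters TATAAA were present in Bhmt and Itih3 and in 14.2% of all windows. Windows were also found for 39 genes of the plasma protein and liver enzyme lists used further below. Of these 39, the HNF1 letters were present in 7, the C/EBP letters in 17, the HNF4 letters in 0 and TATAAA in 8. The searched motifs share no overlapping match in the 4 promoters shown. These 4 show each of the liver motifs in a carrier protein, a fibrinogen chain, a protease inhibitor and an enzyme, and each line gives the 250 bases before the start, 5′ to 3′ on the gene's strand, with matches in capitals. Alb lies at chr14:17906980-17907229 on the minus strand, Fgb at chr2:170700876-170701125 on the minus strand, Pzp at chr4:163491336-163491585 on the minus strand and Cps1 at chr9:76063613-76063862 on the plus strand.
Alb: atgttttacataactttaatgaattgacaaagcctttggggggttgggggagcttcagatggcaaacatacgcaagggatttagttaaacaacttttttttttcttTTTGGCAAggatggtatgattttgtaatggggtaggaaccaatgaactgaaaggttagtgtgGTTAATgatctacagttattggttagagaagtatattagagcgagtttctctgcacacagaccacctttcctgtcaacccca
Fgb: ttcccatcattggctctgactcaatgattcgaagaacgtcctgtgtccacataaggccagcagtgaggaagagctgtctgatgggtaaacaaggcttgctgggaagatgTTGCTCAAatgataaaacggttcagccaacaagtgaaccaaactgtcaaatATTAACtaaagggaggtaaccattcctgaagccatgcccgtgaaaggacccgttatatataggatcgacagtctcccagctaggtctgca
Pzp: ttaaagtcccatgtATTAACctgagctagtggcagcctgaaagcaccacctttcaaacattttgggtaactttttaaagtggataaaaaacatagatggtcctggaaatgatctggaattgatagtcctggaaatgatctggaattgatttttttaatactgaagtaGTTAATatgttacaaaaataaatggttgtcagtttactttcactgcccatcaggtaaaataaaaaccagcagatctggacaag
Cps1: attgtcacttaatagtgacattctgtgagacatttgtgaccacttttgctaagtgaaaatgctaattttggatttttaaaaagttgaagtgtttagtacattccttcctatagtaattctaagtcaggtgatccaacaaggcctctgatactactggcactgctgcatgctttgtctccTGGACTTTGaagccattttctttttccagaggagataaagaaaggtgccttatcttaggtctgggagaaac
In Alb the capitals are a C/EBP match followed by an HNF1 match, 144 and 82 bases before the start. Fgb holds the same pair in the same order, 141 and 90 bases before the start, Pzp holds an HNF1 match at 236 and another at 83 bases, and Cps1 an HNF4 match at 71 bases. A match is a run of letters and says nothing about binding in these lungs.

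The summed level of the 10 transcripts spread far more within groups than the group medians differed between schedules. After 16 exposures and 28 days it was 13.7 CPM at the lowest, 15.6 CPM at the median and 49.4 CPM at the highest in oil vapor lungs, against 36.3, 65.8 and 1076 CPM in air lungs. After 1 exposure and 28 days it was 13.6, 15.2 and 22.7 CPM in oil vapor lungs, against 42.4, 58.2 and 917 CPM in air lungs. In each air group a single animal, number 82 or number 17, stood more than 10 times above the other 5. At 1 day the order of the treatments was the other way round: the lowest, median and highest sums after 16 exposures were 42.2, 231 and 1195 CPM in oil vapor lungs, against 18.3, 33.1 and 75.7 CPM in air lungs. Without animal 43 the oil vapor lungs had 42.2, 100 and 487 CPM. After 1 exposure they were 21.2, 173 and 451 CPM in oil vapor lungs, against 12.1, 30.8 and 70.7 CPM in air lungs. Ordered by median, oil vapor at 1 day was highest, then air at 28 days, air at 1 day and oil vapor at 28 days, with the groups of both schedules next to each other each time. Every pair of neighbours in that order overlapped in range. Of all 48 libraries, 8 had a sum of at least 200 CPM, and they came from animals 43, 45, 48 and 82 with 16 exposures and 5, 7, 16 and 17 with 1 exposure.

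**Figure D1:**
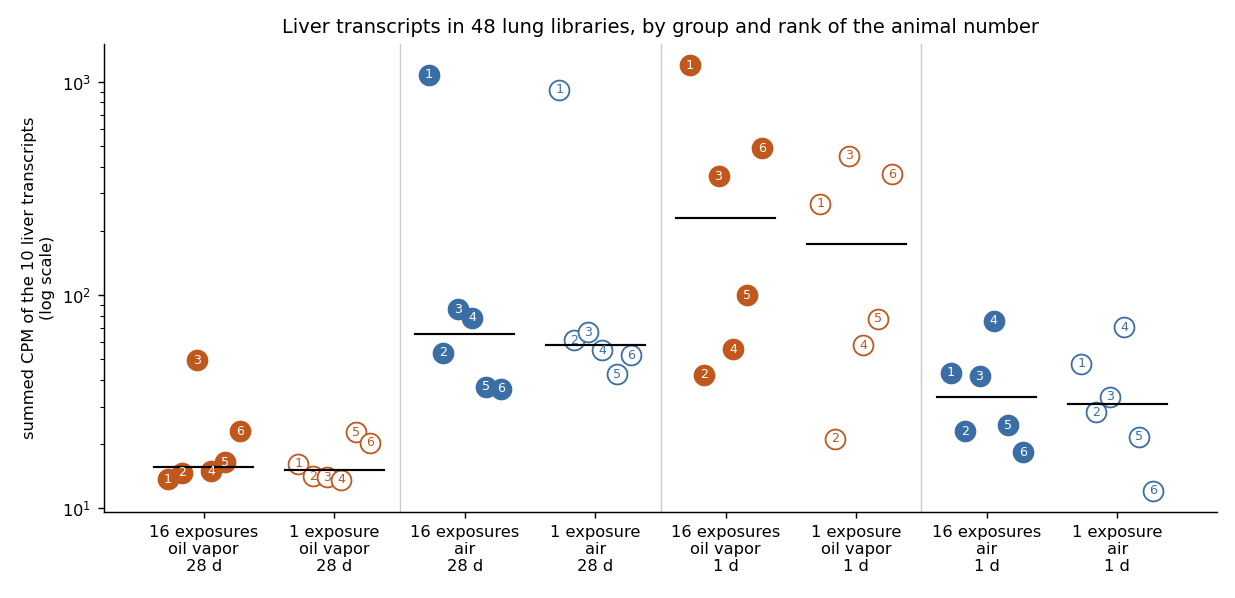
Summed CPM of the 10 liver transcripts (log axis) in each of 48 lungs, by group, with oil vapor in orange, air in blue, 16 exposures as filled and 1 exposure as open circles. The digit in a circle is the rank of the animal's number within its group and the line is the group median. Rank 1 is the high library in both air groups at 28 days (1076 and 917 CPM), and ranks 1, 3 and 6 are the high libraries in both oil vapor groups at 1 day.

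Alb encodes serum albumin, the main carrier and osmotic protein of plasma, and it was detected in every library, with 35 to 3873 counts and a median of 121.5. At 28 days after 16 exposures its lowest, median and highest levels were 7.49, 8.92 and 26.5 CPM in oil vapor lungs, against 21.9, 41.4 and 683 CPM in air lungs. After 1 exposure they were 8.05, 9.16 and 15.6 CPM in oil vapor lungs, against 24.9, 34.4 and 586 CPM in air lungs. The groups did not overlap after 1 exposure, and after 16 exposures oil vapor animal 92, at 26.5 CPM, lay within the air range. At 1 day after 16 exposures the levels were 24.7, 143 and 710 CPM in oil vapor lungs, against 10.2, 18.0 and 43.6 CPM in air lungs. Without animal 43 the oil vapor lungs had 24.7, 64.6 and 292 CPM. After 1 exposure the levels were 12.0, 104 and 289 CPM in oil vapor lungs, against 6.64, 19.9 and 41.0 CPM in air lungs. At 1 day the ranges overlapped in both schedules, with 2 oil vapor lungs of each among the air lungs, animals 44 and 46 after 16 exposures and 6 and 13 after 1 exposure.

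The raw counts of Alb followed the rank of the animal's number, across animals of different tables. In order of animal number, the oil vapor lungs at 1 day had 1092, 89, 1511, 204, 401 and 1791 counts after 16 exposures, against 768, 48, 1345, 197, 323 and 1547 counts after 1 exposure. The air lungs at 28 days had 3873, 216, 242, 203, 94 and 131 counts after 16 exposures, against 3592, 183, 179, 151, 94 and 116 counts after 1 exposure. High and low animals thus stood at the same places in both lists. The air lungs at 1 day had 132, 75, 120, 265, 81 and 47 counts after 16 exposures, against 123, 85, 105, 228, 67 and 35 counts after 1 exposure. The oil vapor lungs at 28 days were low throughout, with 49, 39, 126, 48, 49 and 67 counts after 16 exposures, against 49, 49, 47, 48, 66 and 73 counts after 1 exposure. There the third animal after 16 exposures, number 92, had no counterpart of like level.

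The other carriers were Ttr, which carries thyroid hormone and the retinol carrier, and Gc, the vitamin D binding protein. Ttr had 0 to 189 counts with a median of 7, and it was at or under 3 counts in 15 of 48 libraries. At 28 days it reached at most 0.977 CPM in oil vapor lungs after 16 exposures, against 0.493, 2.71 and 33.3 CPM (lowest, median and highest) in air lungs. After 1 exposure it was at most 0.474 CPM in oil vapor lungs, with 2 of 6 libraries at 0, against 0.833, 2.56 and 29.2 CPM in air lungs. At 28 days Ttr thus overlapped between treatments after 16 exposures and did not after 1 exposure. Gc had 1 to 280 counts with a median of 9.5. In oil vapor lungs at 1 day its lowest, median and highest levels were 1.94, 14.1 and 72.9 CPM after 16 exposures, against 0.653, 1.86 and 4.12 CPM in air lungs, with overlapping ranges. Leaving out animal 43 gave 1.94, 4.99 and 28.1 CPM in the oil vapor lungs.

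Fga and Fgb encode chains of fibrinogen, the precursor of the clot protein fibrin. Fgb had 0 to 164 counts with a median of 6 and was at or under 3 counts in 15 libraries, and Fga had 1 to 148 counts with a median of 5 and was at or under 3 counts in 16. At 28 days after 1 exposure, Fgb had 0.187, 0.520 and 0.761 CPM at the lowest, median and highest in oil vapor lungs, against 0.833, 1.92 and 26.7 CPM in air lungs. Fga had 0.356, 0.471 and 0.711 CPM in oil vapor lungs, against 1.06, 1.43 and 24 CPM in air lungs. Neither chain overlapped between these groups, although the oil vapor values rested on at most 4 counts. At 1 day after 16 exposures, Fgb had 0.832, 6.61 and 44.9 CPM in oil vapor lungs, against 0.707, 1.16 and 2.47 CPM in air lungs. Leaving out animal 43 gave 0.832, 2.25 and 19.4 CPM in the oil vapor lungs.

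Pzp encodes a plasma protease inhibitor of the alpha-macroglobulin family, and Itih3 a heavy chain of the inter-alpha-trypsin inhibitor, which binds hyaluronan. Pzp had 2 to 310 counts with a median of 10. At 28 days after 16 exposures it had 0.727, 1.5 and 4.00 CPM at the lowest, median and highest in oil vapor lungs, against 1.59, 3.13 and 51.5 CPM in air lungs. After 1 exposure it had 0.373, 0.738 and 0.891 CPM in oil vapor lungs, against 2.02, 4.64 and 50.6 CPM in air lungs, which did not overlap. Itih3 had 1 to 155 counts with a median of 8.5. Its excess in animals 82 and 17 was the smallest of the 10. Those animals had 16.5 and 12.3 times the median CPM of Itih3 over all libraries. The other 9 members had 22 to 27.5 times their medians in animal 82 and 17.5 to 25.9 times in animal 17.

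Apob encodes the structural protein of very low density lipoprotein particles. It had 5 to 629 counts with a median of 21 and exceeded 3 counts in every library. At 28 days after 16 exposures its lowest, median and highest levels were 0.930, 2.53 and 6.73 CPM in oil vapor lungs, against 3.35, 6.67 and 111 CPM in air lungs. At 1 day they were 4.16, 23.7 and 139 CPM in oil vapor lungs, against 2.39, 3.08 and 8.40 CPM in air lungs. In both pairs the ranges overlapped. Leaving out animal 43 gave 4.16, 10.5 and 50.4 CPM in the oil vapor lungs at 1 day. After 1 exposure the ranges were 0.958 to 3.08 CPM in oil vapor lungs and 3.71 to 86.1 CPM in air lungs at 28 days, with no overlap.

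The enzymes were Cps1, which starts the urea cycle in mitochondria, and Bhmt, which remethylates homocysteine with betaine. Cps1 had 1 to 183 counts with a median of 6, and Bhmt had 0 to 191 counts with a median of 7. At 28 days after 1 exposure, Bhmt had 0.237, 0.437 and 0.746 CPM at the lowest, median and highest in oil vapor lungs, against 0.833, 1.78 and 28.4 CPM in air lungs, with no overlap. Cps1 had 0.164, 0.287 and 0.891 CPM in oil vapor lungs, against 0.531, 1.74 and 22.3 CPM in air lungs, with overlap. Both enzymes stay inside cells, unlike the other 8 members, whose proteins are secreted.

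The members kept similar proportions in high and low libraries. Of all counts of the 10 transcripts, a share that is not scaled for transcript length, Alb made up 61.5%. In the 10 libraries with at least 500 summed counts, the pooled share of Alb was 62.0%, against 59.5% in the other 38. Apob made up 10.2% against 10.8%, Gc 5.19% against 5.08%, Pzp 4.88% against 5.52%, and Ttr 3.32% against 3.36%. The shares of Fgb were 3.18% against 3.05%, of Bhmt 2.97% against 2.93%, of Fga 2.75% against 2.72% and of Cps1 2.71% against 3.05%. Itih3 stood apart, with 2.78% in the high libraries against 3.94% in the rest. From library to library, the share of Alb ran from 58.7% to 64.3% in the 10 high libraries and from 52.0% to 68.8% in the others, where the sums were as low as 64 counts.

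**Figure D2:**
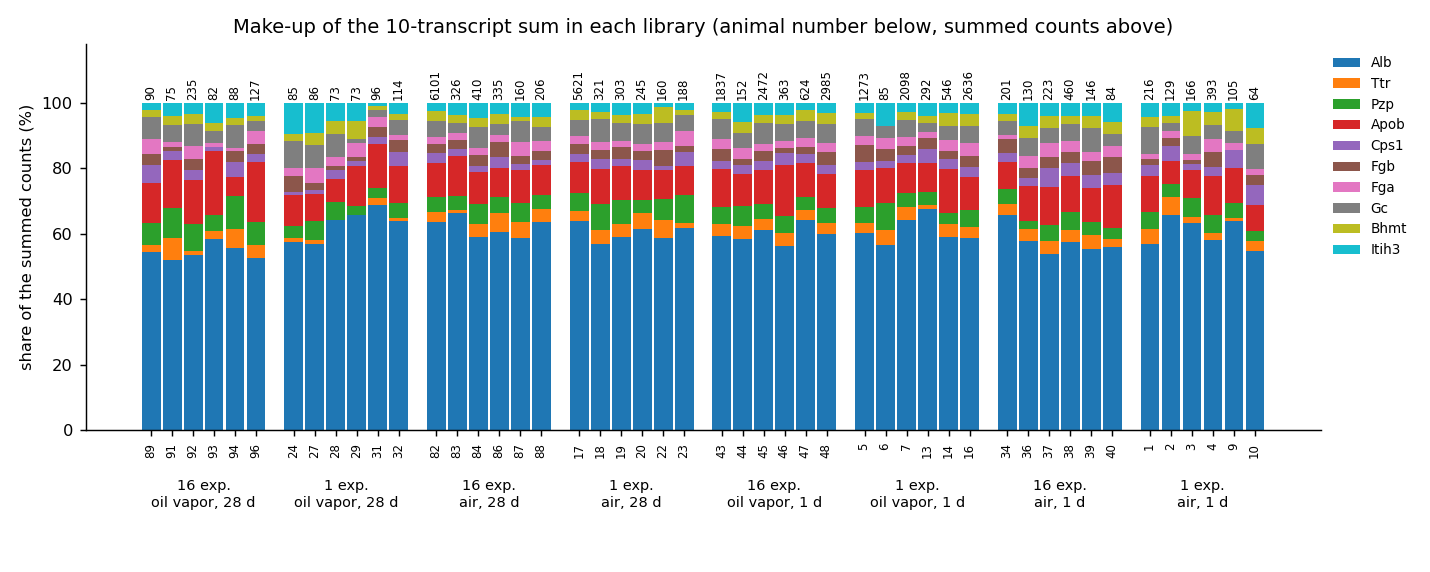
Share of each member (%) in the summed counts of the 10 transcripts, 1 bar per library, grouped by treatment, time and number of exposures, with the animal number below and the summed counts above each bar. Alb fills between 52.0% and 68.8% of every bar, whether the sum is 64 or 6101 counts.

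The 6 animals of a group were then put in order of their numbers, and each was paired with the animal at the same place in the group of equal treatment and time from the other schedule. This gave 24 pairs. The animals of a pair are different rats, and the labels name no tray, cage, index or sequencing run that they would share. The summed raw counts of a pair differed by a median of 0.19 on the log2 scale, against 0.95 for the 120 pairs of unlike rank in the same groups. Within 1.5-fold of each other were 22 of 24 pairs of the same rank and 43 of 120 pairs of unlike rank. The ratio of 16 exposures to 1 exposure had a median of 1.13, with 0.872 at the lowest and 3.22 at the highest, and the animal with 16 exposures had the larger count in 20 of 24 pairs.

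The high pairs stayed close in counts of the sum: 6101 in animal 82 against 5621 in animal 17, 2985 in animal 48 against 2636 in animal 16, and 2472 in animal 45 against 2098 in animal 7. Animals 43 and 5 had 1837 against 1273 counts although their libraries held 1.54 against 4.74 M counts, so that the same pair stood at 1195 against 268 CPM. The exceptions were animals 92 and 28, with 235 against 73 counts, and animals 44 and 6, with 152 against 85 counts. On the CPM scale the median difference was 0.31 for pairs of the same rank against 0.82 for the others, and 20 of 24 pairs were within 1.5-fold. For the sum, raw counts of a pair thus lay closer than counts scaled to the library total. This did not hold for every member. Alb, Pzp, Cps1 and Fgb lay closer in raw counts, with a median difference of 0.21 for Alb against 0.34 in CPM. Ttr, Fga, Gc, Bhmt and Itih3 lay closer in CPM, with 0.50 for Itih3 against 0.64 in raw counts, and Apob had 0.46 on both scales. Over all genes tested the median was 0.29 in raw counts and 0.20 in CPM.

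**Figure D3:**
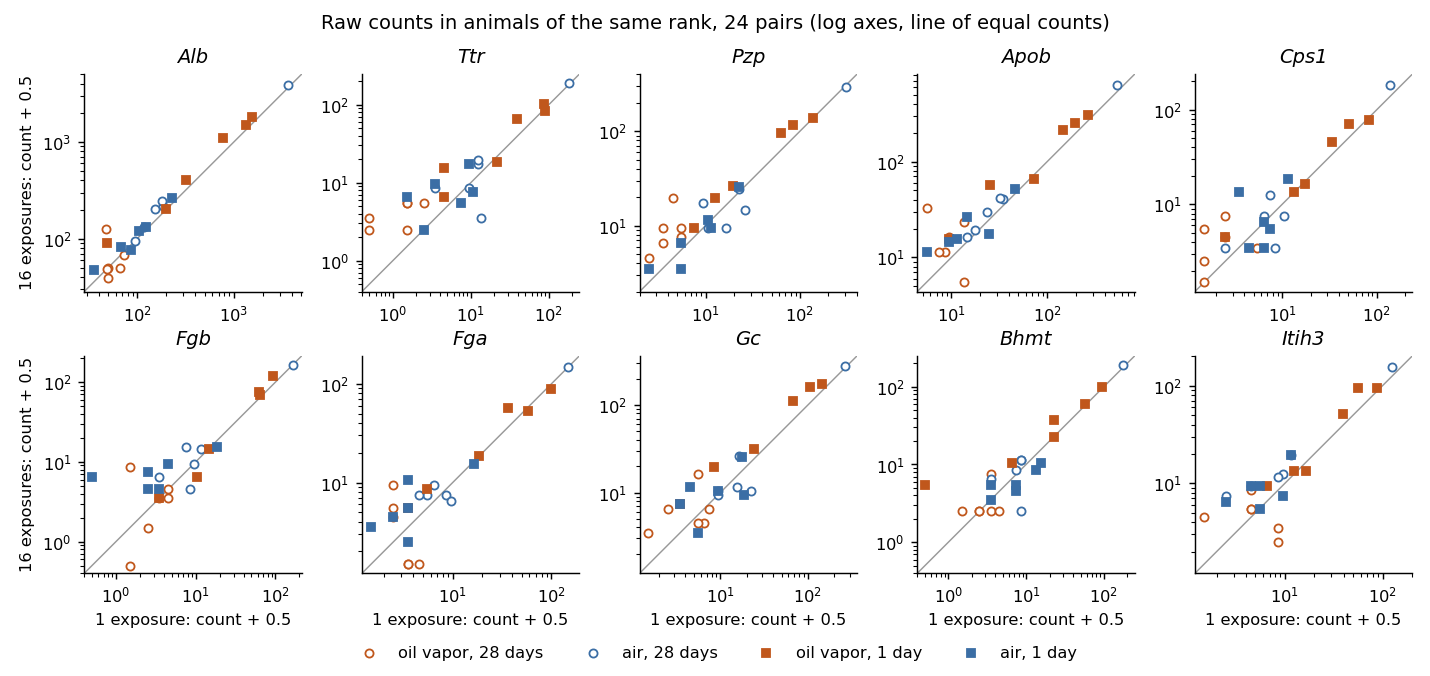
Raw counts plus 0.5 of each member in the 24 pairs of animals of the same rank, 16 exposures on the vertical and 1 exposure on the horizontal axis, both logarithmic, with the line of equal counts. Open circles are lungs at 28 days and squares lungs at 1 day, oil vapor in orange and air in blue. Of 70 points with more than 20 counts in both animals, 60 lie within 1.5-fold of the line, the farthest being Alb in animals 92 and 28 at 2.68-fold, and points of a few counts scatter more widely.

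For each member and each of the 48 animals it was asked whether its partner had the nearest count among the 6 animals of the partner's group. This held for Alb in 27 of 48 animals, for Bhmt in 23, for Fgb in 22, for Pzp in 20, for Cps1 in 19, for Itih3 and Ttr in 17, for Apob in 16, for Gc in 15 and for Fga in 13. Ties count as nearest, which raises the number for genes of few counts. The intestinal gene Fabp2, at 0 in all 48 libraries and not among the genes tested, reached 48. Of the 23 animals of Bhmt, 6 were oil vapor lungs at 28 days, where it had 1 to 7 counts. At a mark of 16 animals, 8 of the 10 members passed, Gc and Fga lying just under it and Apob just on it. Of all 15322 genes tested, 5.71% passed, and their median was 10 animals. Since the members were picked for this likeness, nothing is drawn from the excess. In CPM the counts of animals were 25 for Alb, 16 to 19 for Ttr, Pzp, Apob, Cps1, Fgb and Bhmt, 13 for Gc, 11 for Fga and 9 for Itih3. Of all genes tested, 3.02% passed the mark in CPM, and their median was 9 animals. By group, the summed counts had their nearest partner at the same rank in 8 of 12 oil vapor lungs at 1 day, 6 of 12 air lungs at 1 day, 8 of 12 air lungs at 28 days and 2 of 12 oil vapor lungs at 28 days. The medians of all genes tested, in the same order, were 3, 2, 3 and 2 of 12. In the oil vapor groups at 28 days, all sums but that of animal 92 lay between 73 and 127 counts.

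**Figure D4:**
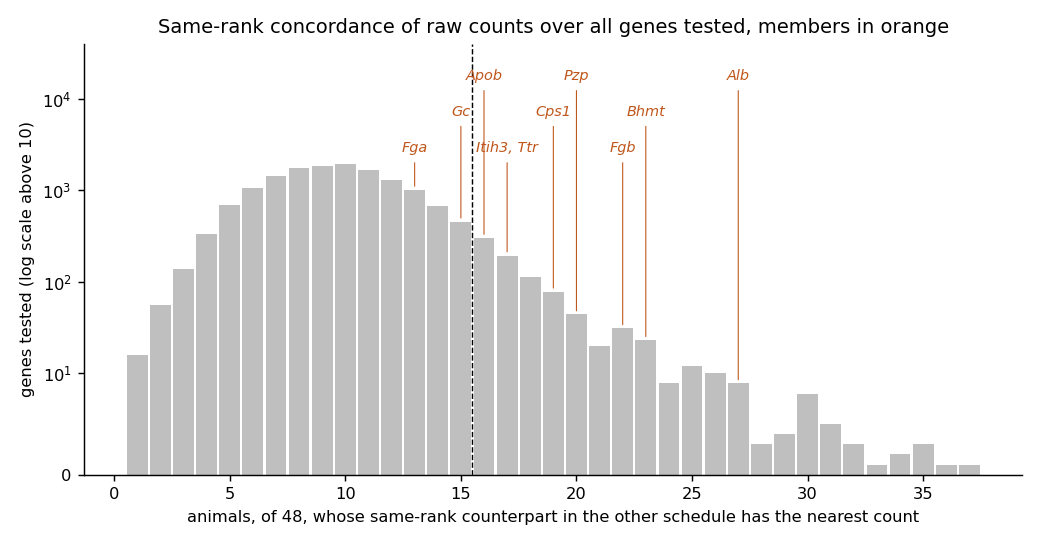
Number of genes (vertical, logarithmic above 10) by the number of animals, of 48, whose counterpart of the same rank has the nearest raw count (horizontal), with the 10 members named in orange. The dashed line is the mark of 16 animals, passed by 5.71% of 15322 genes, and the members run from 13 (Fga) to 27 (Alb).

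At 28 days, oil vapor lungs held less of all 10 transcripts on average than air lungs in both schedules. No member passed the quasi-likelihood test of edgeR, adjusted by Benjamini and Hochberg's method, after either schedule, and neither did any of the other genes tested (0%). After 16 exposures Alb averaged 11.9 ± 7.33 CPM in oil vapor lungs and 144 ± 265 CPM in air lungs (SD, n = 6 each), a log2 fold change of -3.61 (SE 0.95, adjusted p = 0.435 by edgeR). All 10 members had negative values, from -3.70 for Bhmt to -2.74 for Pzp with a median of -3.20, whereas the median of all 15005 genes was 0.01. All 10 had an unadjusted p below 0.05 in the lower direction, as had 2.19% of all genes, and adjusted p ran from 0.435 to 0.792. Without animal 82 the median of the members was -1.32. DESeq2 called 2 members, Alb and Bhmt, and 0.119% of its genes, and no member had groups without overlap (0.900% of all genes had).

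After 1 exposure Alb averaged 10.7 ± 2.98 CPM in oil vapor lungs and 125 ± 226 CPM in air lungs (SD, n = 6 each), a log2 fold change of -3.62 (SE 0.83, adjusted p = 0.203 by edgeR). Ttr had the most negative value, -5.31 (SE 1.13, adjusted p = 0.154 by edgeR), and Itih3 the least, -2.46. The median of the members was -3.68, and that of all 14820 genes 0.01. All 10 had an unadjusted p below 0.05 in the lower direction, as had 4.41% of all genes, and 8 of 10, all but Cps1 and Itih3, did not overlap between groups, as did 0.870% of all genes. Without animal 17 the median was -1.79, and the values ran from -3.66 for Ttr to -0.79 for Itih3. DESeq2 called 7 members, Alb, Ttr, Pzp, Apob, Cps1, Gc and Bhmt, and 0.157% of its genes.

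At 1 day the members had positive values in both schedules and none passed edgeR's test. After 16 exposures Alb averaged 224 ± 262 CPM in oil vapor lungs and 21.9 ± 12.6 CPM in air lungs (SD, n = 6 each), a log2 fold change of 3.57 (SE 0.92, adjusted p = 0.183 by edgeR). Without animal 43 the oil vapor lungs averaged 127 ± 122 CPM of Alb (SD, n = 5). The members ran from 2.63 for Cps1 to 3.57 for Alb with a median of 3.16, which was 2.40 without animal 43. Of all 15005 genes 0.00666% passed the adjusted threshold, and the median of all genes was 0.02. All 10 members had an unadjusted p below 0.05 in the higher direction, as had 5.80% of all genes. DESeq2 called 9 members, all but Cps1, and 0.511% of its genes, and no member had groups without overlap (0.786% of all genes had).

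After 1 exposure Alb averaged 127 ± 112 CPM in oil vapor lungs and 21.4 ± 11.9 CPM in air lungs (SD, n = 6 each), a log2 fold change of 2.58 (SE 0.77, adjusted p = 0.316 by edgeR). The members ran from 1.85 for Bhmt to 2.92 for Fgb with a median of 2.51, and no gene of 14820 passed (0%). All 10 had an unadjusted p below 0.05 in the higher direction, as had 4.64% of all genes. DESeq2 called 0 members and 0.132% of its genes, and no member had groups without overlap (0.580% of all genes had). The high lungs were animals 5, 7 and 16, while animal 6 had 85 summed counts, fewer than 5 of the 6 air lungs.

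**Figure D5:**
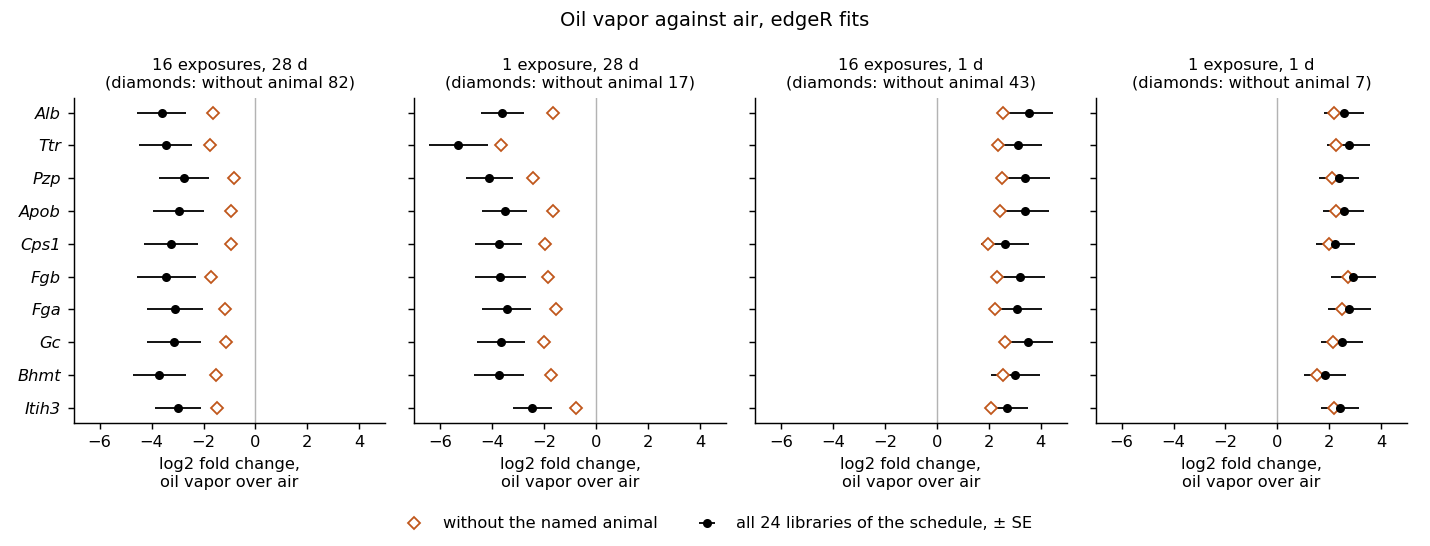
Log2 fold change of each member, oil vapor over air, from edgeR fits of the 24 libraries of a schedule (black circles, bars are ± SE), and the same without the animal named above each panel (open diamonds). All values are negative at 28 days and positive at 1 day, and the diamonds lie nearer to 0 in every panel.

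The air groups alone differed between times in the same transcripts. After 16 exposures Alb averaged 144 ± 265 CPM at 28 days and 21.9 ± 12.6 CPM at 1 day (SD, n = 6 each), a log2 fold change of 2.73 (SE 0.89, adjusted p = 0.222 by edgeR). The members had a median of 2.44, which was 0.53 without animal 82, and 0 passed edgeR's adjusted threshold, against 0.327% of all genes. All 10 had an unadjusted p below 0.05 in the higher direction, as had 5.82% of all genes, and DESeq2 called 0 members and 1.29% of its genes. After 1 exposure the median was 2.53, which was 0.67 without animal 17, and all 10 again had an unadjusted p below 0.05 in the higher direction, as had 6.80% of all genes. Pzp averaged 11.6 ± 19.1 CPM at 28 days and 1.82 ± 1.28 CPM at 1 day (SD, n = 6 each), and it rose by 2.73 (log2, SE 0.77, adjusted p = 0.0490 by edgeR), the only member of 10 to pass, as did 1.01% of all genes in that direction and 3.25% in either. The groups overlapped, and Pzp did not pass when any of the air animals 1, 2, 3, 4, 9, 10 or 17 was left out, its value being 1.06 without animal 17. DESeq2 called 3 members, Alb, Pzp and Apob, and 3.83% of its genes. These comparisons share their air lungs at 28 days with those of oil vapor at 28 days, and their air lungs at 1 day with those of oil vapor at 1 day.

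The effect of oil vapor did not differ detectably between the schedules. At 1 day the members' difference, 16 exposures minus 1 exposure on the log2 scale, ran from 0.28 for Fgb to 1.19 for Bhmt with a median of 0.62, and 0 members had an unadjusted p below 0.05, as against 5.80% of all genes in the higher and 3.94% in the lower direction. Bhmt, with the largest difference, had a SE of 1.33 and an adjusted p of 0.819 by edgeR. At 28 days it ran from -0.51 for Itih3 to 1.85 for Ttr with a median of 0.41, and again 0 members had an unadjusted p below 0.05, as against 3.03% of all genes in the higher and 2.16% in the lower direction. Ttr had a SE of 1.96 and an adjusted p of 0.995 by edgeR. Of all 15322 genes, 0.0457% passed the adjusted threshold at 1 day and 0% at 28 days. With standard errors above 1 on the log2 scale in all 20 of these values, differences of several fold lay within the error of this fit, which does not use the ranks of the animals.

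Genes outside the 10 were compared with the summed members across the 48 libraries. By Pearson r of log2(CPM + 1), over 15544 genes with a mean of at least 1 CPM, high values were found for Serpina3c at 0.972, A1i3 at 0.957, LOC299282 at 0.954, Ambp at 0.944, Crp at 0.943, Ahsg at 0.940, Apoh at 0.939, Serpinc1 at 0.937 and Mug1 at 0.936. These points share library and depth, the members are themselves a chosen sum, and no p is given. Serpina3c and Serpinc1 belong to the serpin family of protease inhibitors, and A1i3 and Mug1 to the alpha-macroglobulin family. In animals 82 and 17, Serpina3c had 189 and 164 counts against a median of 7.5 over all libraries, A1i3 213 and 190 against 6, and Ahsg 246 and 212 against 8.5. In all, 34 genes had an r of at least 0.8.

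A list of 30 further plasma proteins of hepatocytes had its 3 highest means in Cp, the copper oxidase ceruloplasmin, Tf, the iron carrier transferrin, and Fgg, the remaining fibrinogen chain. Cp had 1878 counts in animal 82 and 1920 in animal 17 against a median of 1691.5, Fgg 638 and 586 against 435.5, and Tf 1789 and 1712 against 539. Cp and Fgg in these animals thus stood less than 1.5-fold above their medians, unlike Fga and Fgb. Of the 30, 14 passed the filter on low counts in each schedule, and in oil vapor over air at 28 days 12 of 14 had negative log2 fold changes after 16 exposures and 11 of 14 after 1 exposure. At 1 day 12 of 14 after 16 exposures and 14 of 14 after 1 exposure had positive values. The medians of these log2 fold changes after 16 exposures and 1 exposure were -0.58 and -0.53 at 28 days and 0.82 and 0.34 at 1 day, and none passed edgeR's adjusted threshold in any of the 4 comparisons.

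Of 25 enzymes of liver metabolism, Sardh and Ass1 were among those with the highest means, and 11 passed the filter after 16 exposures and 9 after 1 exposure. Medians of their log2 fold changes, oil vapor over air, after 16 exposures and 1 exposure were -0.24 and -0.11 at 28 days and 0.07 and 0.02 at 1 day, with none called by edgeR. Sardh had 213 counts in animal 82 and 250 in animal 17 against a median of 184. Cyp2c11, a cytochrome of male rat liver, had 73 counts in animal 82 and 64 in animal 17 against a median of 1, and Mup5 had 27 in each against a median of 2. In the 48-library table, 14 of 25 tested plasma protein genes, 6 of 14 enzymes and 2 of 2 male rat liver genes passed the mark of 16 animals of the same rank. Ties count as nearest here too, and several of these genes had medians of few counts.

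Marker lists of other organs that express some members were read beside them. The intestinal gene Fabp2 was at 0 in all 48 libraries, and Alpi and Si had at most 1 count. Of the 8 intestinal genes, Apoa4, which rat liver also makes, had 49 counts in animal 82 and 31 in animal 17 against a median of 1, and the summed list ran from 4.19 to 20.7 CPM. The choroid plexus gene Otx2, from the tissue that makes Ttr in brain, was at 0 in all 48, and that list of 5 summed to 31.2 to 111 CPM, led by Kl, Slc4a5 and Kcnj13. Umod of the kidney tubule had at most 3 counts, and the 8 kidney genes summed to 3.49 to 9.28 CPM. The 8 brain genes, among them Mbp and Camk2a, summed to 29.4 to 114 CPM, or to 60.7 CPM at the most without animal 43, and Snap25 had at most 2 counts. The largest sums of the intestinal list were in animals 17, 43 and 82, at 20.7, 17.6 and 17.1 CPM.

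Erythroid and heart muscle transcripts also varied between lungs, but at 1 day their medians did not share the wide difference between treatments of the liver sum. The 9 erythroid and marrow genes, led by Alas2 and Slc4a1, summed to 103 to 753 CPM in oil vapor lungs against 673 to 2799 CPM in air lungs at 28 days after 16 exposures, and to 109 to 625 against 723 to 4056 CPM after 1 exposure. At 1 day they summed to 97.8 to 23034 CPM in oil vapor lungs against 411 to 2599 CPM in air lungs after 16 exposures, and to 143 to 6737 against 424 to 2902 CPM after 1 exposure. The medians at 1 day were 829 against 775 CPM after 16 exposures and 720 against 831 CPM after 1 exposure. The value of 23034 CPM was that of animal 43, and the other 5 oil vapor lungs had 97.8 to 919 CPM. The erythroid and liver sums were high together in some libraries and not in others. Animals 43 and 5 had the largest erythroid sums of all 48 libraries, 23034 and 6737 CPM, with 1195 and 268 CPM of liver transcripts. Animals 82 and 17, the highest in liver transcripts at 28 days, ranked 2 of 6 in the erythroid sum of their groups, with 2147 and 1801 CPM. Animals 88 and 23 ranked 1 there, with 2799 and 4056 CPM, and had 36.3 and 52.2 CPM of liver transcripts. Animals 45 and 7 had 361 and 451 CPM of liver transcripts and the lowest erythroid sums of their groups, 97.8 and 143 CPM. Mpo and Elane, genes of marrow granulocyte precursors, were at 0 in 34 and 43 of 48 libraries. All 7 tested erythroid genes passed the mark of 16 animals of the same rank, as did 3 of 6 heart genes and 1 of 10 lung genes.

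The 6 heart genes, led by Actc1, Tnnt2 and Myh7, summed to 21.8 to 69.8 CPM in oil vapor lungs against 69.3 to 833 CPM in air lungs at 28 days after 16 exposures. After 1 exposure they summed to 15.2 to 134 against 49.7 to 813 CPM. At 1 day they summed to 34.1 to 611 CPM in oil vapor lungs against 67.7 to 364 CPM in air lungs after 16 exposures, and to 52.9 to 207 against 46.9 to 444 CPM after 1 exposure. Their medians at 1 day were 144 against 119 CPM after 16 exposures and 81.3 against 160 CPM after 1 exposure. Without animal 43, the oil vapor lungs after 16 exposures had 34.1 to 189 CPM. Animals 82 and 17, the highest in liver transcripts at 28 days, had the lowest heart sums of their air groups, 69.3 and 49.7 CPM. The part of other tissues in the liver transcript levels was not tested.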

How the data were processed

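Total RNA from a piece of lung of each rat was made into stranded, ribosome-depleted libraries, per the labels' protocols. What the authors deposited were raw counts of reads by gene symbol, in 1 table per schedule with 24 libraries and the same 30045 genes each. The submitters' processing notes name HISAT2 2.1.0 and HTSeq 0.6.1, with bcl2fastq 2.19, SAMtools 1.8 and Trimmomatic 0.35, and the build Rnor_6.0. Which annotation and strand setting served for counting is not given in the sources used here. Reads from overlapping genes and near copies, such as those of the macroglobulin and serpin families, cannot be told apart. Column names carry each animal's number, treatment, time and schedule, which tied them to the samples. No column (0) was without a sample, and animal 32 was placed by its title and column, although its description names the other table.

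CPM were computed over the library total. Each schedule's 24 libraries were fitted in edgeR 4.0.16 (R 4.3.3) with TMM, filterByExpr, a group-means model and the two-sided quasi-likelihood test, Benjamini-Hochberg adjusted over all genes at 0.05, and schedule differences were fitted over all 48 libraries. The SE is the absolute log2 value over the square root of F. Alternatives were RLE, no filter, DESeq2 1.42.0, the 12 libraries compared, all 48, and leaving out each animal. For the pairs, distance was the absolute difference of log2(count + 0.5), ties included, over 15322 genes, with CPM, TMM-scaled CPM and omission of each group pair as alternatives. The script was tested on simulated data. Within groups, all 120 pairs of libraries differed by more than sampling noise (chi-square per gene 2.60 to 99.5). They are therefore not copies of 1 library, but this cannot tell a difference between animals from one of library preparation. Pairs across the schedules were not checked in this way. Each library was taken as 1 animal by its label, and p-values measure the spread between libraries of a group. The reads carry no molecular identifiers, so the floor of 3 counts covers counting error only.

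The members and lists were chosen with earlier results of these data known. Named genes are the 10 members, the 3 genes of highest mean CPM in each other list, and the 10 genes of highest r with the summed members. Fabp2, Alpi, Si, Otx2, Umod, Snap25, Mpo, Elane and genes named for a call or a share are outside this rule, picked with their values in view. Some genes that the rule names are not reported here. Transcript lengths were not used here, so levels are not compared between genes. Promoters came from RefSeq (GRCr8), matched by symbol, and no coordinates of the count build are given.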

Additional observations from a re-analysis of the deposited data

Results flagged for a closer look

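In each group of 6, a library was listed where its gap to the nearest other library, as a share of the group's range, exceeded Dixon's 95% critical value. Of 88 tests, 36 exceeded it, and all were high values from 6 animals. Chance gives about 1 in 20 for normally distributed values of genes chosen without regard to them. The CPM were used without a log scale, so this share need not hold here. The members were picked for wide variation between lungs, so the number only describes which libraries stood apart. Since the members vary together across libraries, the tests within an animal are not separate evidence.

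Animal 82 (16 exposures to air, 28 days) stood apart in all 10 members and the sum, with 683 CPM of Alb, 33.3 of Ttr, 51.5 of Pzp, 111 of Apob, 32.3 of Cps1, 28.4 of Fgb, 26.1 of Fga, 49.4 of Gc, 33.7 of Bhmt, 27.3 of Itih3 and 1076 in sum. Its counterpart of the same rank, animal 17 (1 exposure to air, 28 days), did so too, with 586 CPM of Alb, 29.2 of Ttr, 50.6 of Pzp, 86.1 of Apob, 22.3 of Cps1, 26.7 of Fgb, 24 of Fga, 43.2 of Gc, 28.4 of Bhmt, 20.4 of Itih3 and 917 in sum. Animal 43 (16 exposures to oil vapor, 1 day) stood apart in 5 members, with 42.3 CPM of Ttr, 62.5 of Pzp, 139 of Apob, 37.1 of Fga and 72.9 of Gc. Its counterpart, animal 5, was not listed.

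Animal 92 (16 exposures to oil vapor, 28 days) had 26.5 CPM of Alb, 4.00 of Pzp, 3.37 of Gc, 1.47 of Bhmt and 49.4 in sum. Its counterpart, animal 28, had 14 CPM in sum, near the low end of its group. At 1 day, animal 38 (16 exposures to air) stood apart with 4.12 CPM of Gc and 3.13 of Itih3, and its counterpart, animal 4 (1 exposure to air), with 3.24 CPM of Fgb and 2.88 of Fga. What sets these animals apart was not tested.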

How the results depend on the processing

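Of 1050 log2 fold changes of the members under other settings, 1048 kept their sign. The exceptions, in air at 28 days over 1 day, were Cps1 at -0.14 without animal 82 (range 2.53 to -0.14 with each animal left out) and Bhmt at -0.01 without animal 17 (2.24 to -0.01). Members called by DESeq2 in place of edgeR numbered 2 (oil vapor over air, 28 days, 16 exposures), 7 (the same, 1 exposure), 9 (1 day, 16 exposures) and 3 (air, 28 days over 1 day, 1 exposure), against 0, 0, 0 and 1. In the same order, DESeq2 called 0.119%, 0.157%, 0.511% and 3.83% of its genes, and edgeR 0%, 0%, 0.00666% and 3.25%. The 1 call, Pzp, became 0 with no filter, with only the 12 libraries compared and with all 48, and 0 to 1 with each animal left out. With only 12 libraries, 3 to 9 of the 10 members passed the filter. The number of animals with the nearest count at the same rank fell to 9 for Itih3 in CPM and in TMM-scaled CPM, and to 8 for Fga without the oil vapor groups at 1 day (scaled to 48 animals). The cause was not tested, except that leaving out animals 82 or 17 removes the highest library. No paired analysis was possible because the labels share no animal number between groups. Depth limits the low members: at a few counts per library, levels below 0.419 to 1.95 CPM lie under the limit that a count of 0 allows.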

Other observations

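Among the pairs of the same rank, the counts of single members were also close in the pairs 82 with 17 and 48 with 16. Animals 82 and 17 had 292 and 310 counts of Pzp, 161 and 164 of Fgb, 148 and 147 of Fga, and 280 and 265 of Gc. Farthest apart in that pair was Cps1, with 183 and 137 counts (ratio 1.34), followed by Itih3, with 155 and 125 (ratio 1.24). Animals 48 and 16 had 136 and 137 counts of Pzp, 309 and 265 of Apob, 77 and 83 of Cps1, and 98 and 95 of Bhmt. Their farthest member was Fgb, with 119 and 93 counts (ratio 1.28). Animals 43 and 5, whose libraries differed in depth by a ratio of 0.324, had more counts in animal 43 for every member, from 69 and 63 of Fgb (ratio 1.10) to 65 and 38 of Ttr (ratio 1.71). For comparison, Sftpc, the surfactant protein C gene of alveolar type 2 cells, had 3203 counts in animal 43 and 24969 in animal 5, and 31913 in animal 82 and 37485 in animal 17. Alas2, which starts heme synthesis in red cell precursors, had 30019 counts in animal 43 and 27026 in animal 5. The labels give no record that would tell a shared handling step from chance, and what the likeness of the pairs reflects was not tested.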
